A study of Mus musculus with 17 samples.

Results

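The star-strand miRs are the mature mouse miRs whose name ended in an asterisk on these kidney arrays, and 115 of the 569 mature miRs on the array were of this kind. For 104 of them the array also carried the row of the same name without the asterisk, here called the guide, and a further 9 pairs joined a numbered star such as miR-30c-2* to its unnumbered guide. The remaining 2 had no such row. A miR hairpin is cut by Dicer into a short duplex, and as background, one strand of it, the guide, is usually kept in an Argonaute protein while the other, the star or passenger strand, is usually degraded. Both strands of a hairpin come from 1 transcript, so a change in its transcription would be shared by them unless further hairpins encode a strand, whereas strand choice and decay act on each strand separately. Some hairpins yield both strands as stable miRs, and names given early do not always mark the rarer strand.

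The miRs were measured in kidneys of C57/BL6 mice, labelled 10 to 12 weeks old, in 17 samples that were each a pool of 3 mice. There was 1 naive pool from untreated mice, 8 pools after 30 minutes of warm ischemia and reperfusion (IRI), and 8 pools after sham surgery, both taken on day 1, day 3, day 5, day 7, day 10, day 14, day 21 and day 30. The methods give the mice as male and the labels as female. On 8 arrays the IRI pool was read in the dye Cy3 and the sham pool of the same day in Cy5, never the reverse, and the naive pool was read alone in Cy3 on array 9. A difference between IRI and sham that is equal on all days therefore cannot be told apart from a dye difference at that probe, and this holds for the difference between 2 strands as well. No day has a replicate, so the 8 days stand as replicates. Because these are bulk samples, fewer cells of a type and less RNA per cell cannot be told apart.

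The sequences below are those of the star miRs that the results turn on, with their guides where the comparison of strands is made, as the array gives them and as RefSeq holds them. Capitals mark the seed, bases 2 to 8, which pairs with targets.
miR-140*: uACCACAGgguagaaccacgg
miR-30a*: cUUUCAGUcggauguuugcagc
miR-30a: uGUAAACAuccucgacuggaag
miR-30e*: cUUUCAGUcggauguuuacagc
miR-30c-1*: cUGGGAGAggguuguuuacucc
miR-30c-2*: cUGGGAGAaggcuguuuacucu
miR-200a*: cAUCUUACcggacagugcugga
miR-200a: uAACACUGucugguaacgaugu
miR-200b*: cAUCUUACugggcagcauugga
miR-200b: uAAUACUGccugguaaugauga
let-7b*: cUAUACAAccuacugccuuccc
let-7b: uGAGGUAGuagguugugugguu
let-7f*: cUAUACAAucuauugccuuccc
let-7d*: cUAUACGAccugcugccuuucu
miR-22*: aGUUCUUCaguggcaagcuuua
miR-22: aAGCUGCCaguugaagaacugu
miR-10a*: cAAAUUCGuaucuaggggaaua
miR-10b*: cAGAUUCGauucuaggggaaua
miR-322*: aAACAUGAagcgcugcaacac
The seed of a star differs from that of its guide in every pair shown. Star seeds were shared within families, by miR-30a* with miR-30e*, miR-30c-1* with miR-30c-2*, miR-200a* with miR-200b*, and let-7b* with let-7f*. The probes of miR-30a* and miR-30e* differ at 1 base, those of let-7b* and let-7f* at 2, and those of miR-10a* and miR-10b* and of miR-30c-1* and miR-30c-2* at 3, so the array may not separate these partners. Of the 115 star miRs, 105 matched a RefSeq mature entry or hairpin.

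How a star lies in its hairpin is shown by 3 RefSeq precursors of the build GRCm38.p6, chosen because their stars were among the best measured, with both mature strands in capitals. Mir30a lies on the plus strand at chr1:23272269-23272339, with the guide on the 5′ arm. Mir200b lies on the minus strand at chr4:156055681-156055750, with the star on the 5′ arm. Mir140 lies on the plus strand at chr8:107551244-107551313, with the star on the 3′ arm.
Mir30a: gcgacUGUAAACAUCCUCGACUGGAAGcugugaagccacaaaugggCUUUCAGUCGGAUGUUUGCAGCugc
Mir200b: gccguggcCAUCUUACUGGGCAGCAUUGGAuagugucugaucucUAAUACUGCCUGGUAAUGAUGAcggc
Mir140: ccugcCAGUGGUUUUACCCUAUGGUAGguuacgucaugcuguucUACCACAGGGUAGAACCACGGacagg
Of the 113 pairs made by name, both strands of 97 were found whole in RefSeq hairpins, and all 97 lay in a shared hairpin. Of the 98 star miRs located in a hairpin, 40 lay on the 5′ arm and 58 on the 3′ arm. The first base differed between the strands: 41 of 115 stars began with C and 22 with U, while 60 of 109 guide rows began with U and 11 with C. Among the stars that were measured well enough to be tested, 15 of 24 began with C and 2 with U.

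Few star miRs rose above the background of the array. A miR was taken as above the empty spots in a sample when the mean of its 6 spots exceeded the median of 250 empty spots by more than 3 scaled median absolute deviations, and it was tested when this held in at least 8 of the 16 IRI and sham samples. Of the star miRs 24 passed, or 20.9%, against 152 of 454 other miRs, or 33.5%. Only miR-30a*, miR-140*, miR-30c-2* and miR-322* were above the empty spots in all 17 samples, whereas 100 of the other miRs were. In 15 star miRs no sample was above, and 9 more were above in naive alone. A stricter limit of 5 deviations left 13 star miRs, and the 95th percentile of the empty spots admitted 62.

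The count of star miRs above the empty spots varied widely between samples. It ran from 8 to 73 in IRI with a median of 20, from 16 to 44 in sham with a median of 27, and was 74 in naive. The highest IRI counts were 73 on day 7 and 59 on day 1. The lowest, 8 on day 10 and 10 on day 14, were in the 2 samples whose empty spots scattered most, with scaled deviations of 82.0 and 53.6 against 11.3 on day 7. The other miRs moved the same way, with 65.9% of them above the empty spots on day 7 in IRI and 25.6% on day 10. The part of the empty spots in these counts was not tested.

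**Figure D1:**
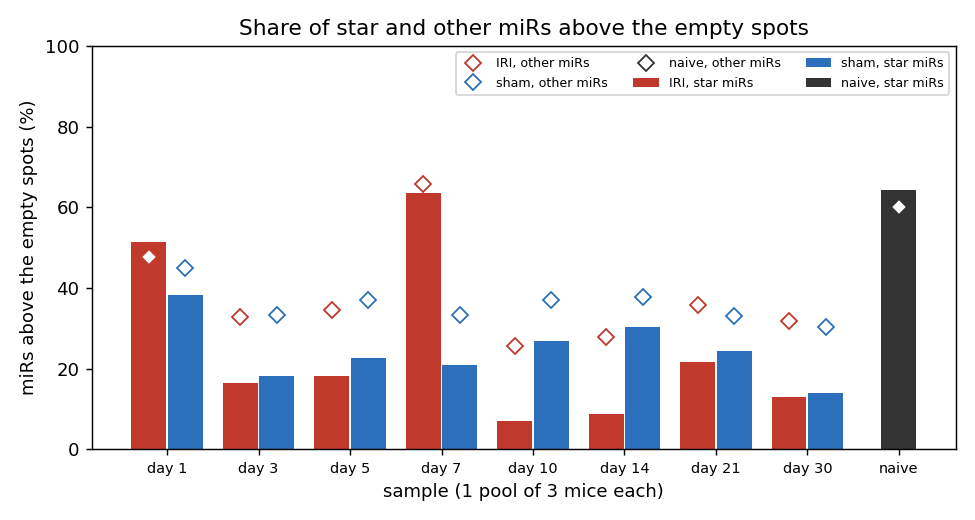
Share of miRs above the empty spots (y axis, %) in each sample (x axis, 1 pool of 3 mice). Bars are the 115 star miRs and diamonds the 454 other miRs; naive and the IRI pools of days 1 and 7 stand highest, and the IRI pools of days 10 and 14 lowest, in both classes.

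The limit of 8 samples fell within a continuous range. Just inside it lay miR-200a* and miR-29c*, each above the empty spots in 9 samples, and miR-27b* in 8. Just outside lay miR-330* in 7 samples, let-7c-1* in 6 and miR-191* in 5. Their mean normalized signals, a linear scale after background correction and normalization, were 105.9, 105.5 and 111 inside and 106.4, 99.7 and 103 outside. The miRs that were not tested had a median of 91.2 on that scale, which is the floor that the processing leaves. Tested stars lay between 105.5 and 325 with a median of 125, and other tested miRs had a median of 361. Ratios of stars so near the floor are held toward 1, and the values without the offset of the background correction are therefore given beside many of the results they change.

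All 5 stars of the miR-30 family, a group of miRs abundant in kidney epithelium, were tested. Of the stars of epithelial and tubule miRs 4 of 7 were tested, namely miR-200a*, miR-200b*, miR-10a* and miR-10b*. The let-7 stars, from hairpins whose guides repress growth-promoting mRNAs such as Hmga2, passed in 3 of 7. None of 8 stars of the miR-17-92 cluster and its paralogs passed, none of 13 from the imprinted Dlk1-Dio3 cluster, and none of 3 from muscle, endothelial and blood miRs. Of 5 stars from injury and fibroblast miRs only miR-34c* passed, and of 12 on a list of placental, testis and some X-linked clusters, which does not hold miR-322*, only miR-467a* and miR-467b*. The other 55 stars, on none of these lists, gave 9 that passed, namely miR-22*, miR-24-2*, miR-27b*, miR-28*, miR-29c*, miR-140*, miR-322*, miR-378* and miR-674*.

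The labelled tissue was checked on guide rows. Of 16 miRs of kidney tubule and epithelium, 13 were above the empty spots in all 17 samples, and none of 6 muscle and none of 2 neuronal miRs were. The summed signal of 5 leukocyte miRs was 1447 to 3266 in IRI and 820 to 1177 in sham, with 2 of the 5 above the empty spots in all samples. The liver miR miR-122 stood apart in 1 sample, the sham pool of day 30, at 3092 against 58.1 in the IRI pool of that day and 95.8 to 123 in the other samples. The part of leukocytes and of this pool in the ratios was not tested, and ratios without day 30 are given below.

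Among pairs with both strands tested, the guide gave the stronger signal in all 17 exact pairs when averaged over the IRI and sham samples. A ratio of 2 probes reflects how well each binds as well as how much RNA there is, so it orders signals and not molecules. The median log2 ratio of star to guide was -3.95, a guide signal 15.4-fold higher, and the pairs ran from -8.22 for let-7f to -0.19 for miR-322. The star was lower in every one of the 17 samples in 15 pairs, the exceptions being miR-28 and miR-322. Without the offset the median was -5.03, and with plain subtraction of the empty spots it was -5.73, so the size of the gap depends on the background.

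The let-7 pairs had the widest gaps. Over the 16 samples let-7b* averaged 123 and let-7b 28745, let-7d* 133.7 and let-7d 29968, and let-7f* 114 and let-7f 34077. RefSeq places let-7f in 2 hairpins and let-7f* in 1 of them, so this guide has a source that its star lacks. These guides were among the brightest miRs on the array while their stars lay near its floor. The log2 ratio of let-7b* to let-7b was -7.50 ± 0.35 in IRI (SD, n = 8), -8.23 ± 0.28 in sham (SD, n = 8) and -5.64 in naive.

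The miR-30 stars ranged from the brightest tested star, miR-30a*, to some of the dimmest. In IRI miR-30a* ran from 209 to 415 with a median of 327, in sham from 188 to 546 with a median of 353, and it was 99.5 in naive. The 2 arms overlapped fully and naive lay below both on the normalized scale. Before normalization the spots of miR-30a* averaged 576 in naive and 586 to 949 in IRI. The empty spots had medians of 511 in naive and 186 to 516 in IRI. The part of the normalization in this difference was not tested. The guide miR-30a averaged 2259, 6.94-fold higher than miR-30a*, while miR-30e* averaged 167 against 748 for miR-30e. The numbered star miR-30c-2* averaged 191.6 and miR-30c-1* 109, against 7764 for miR-30c, which 2 hairpins encode, and miR-30b* averaged 107 against 4589 for miR-30b. In the hairpins of the miR-200 family, whose guides repress the mesenchymal regulators Zeb1 and Zeb2, miR-200b* averaged 175 against 6665 and miR-200a* 105.9 against 1631. In those of the Hox-cluster miRs, miR-10a* averaged 157 against 5469 and miR-10b* 141.8 against 7495.

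The signals of star and guide lay closest in 2 pairs, all near the floor. The star miR-28* averaged 125 against 165 for miR-28, a log2 ratio of -0.40 with an SD of 0.22 over the 16 samples, and it was the lower in all 16. For miR-322*, from an X-linked hairpin, the averages were 149 and 169, a ratio of -0.19 with an SD of 0.47.

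**Figure D2:**
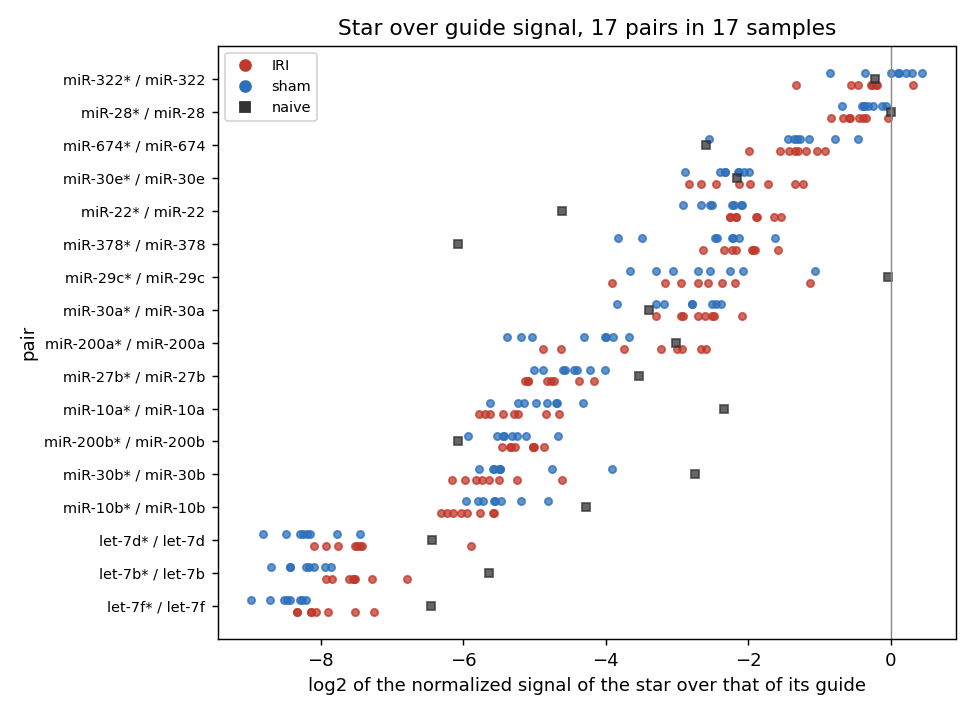
Log2 of the normalized star signal over the normalized guide signal (x axis) in 17 pairs (y axis). Each point is 1 sample, coloured by group, and the line at 0 marks equal signals; the let-7 pairs lie lowest and miR-28 and miR-322 reach 0.

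In 4 pairs the order was the other way, with the star tested and the guide row not. The clearest was miR-140*, the strand that RefSeq names miR-140-3p, from a hairpin in the Wwp2 gene best known from cartilage. It was above the empty spots in all 16 samples and miR-140 in 3. The signal of miR-140* ran from 217 to 407 in IRI with a median of 286, from 193.6 to 442 in sham with a median of 278, and was 1701 in naive. The arms overlapped fully. Naive lay above both on the normalized scale. Before normalization its spots averaged 721, within the 567 to 1146 of the IRI samples in the same dye. These values include background, and the empty spots had medians of 511 in naive and 186 to 516 in IRI. Above the empty-spot median naive was lower than every IRI sample, opposite to the normalized order. The part of the normalization in this difference was not tested. The guide row stayed between 86.7 and 101 in all IRI and sham samples and was at 125 in naive.

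**Figure D3:**
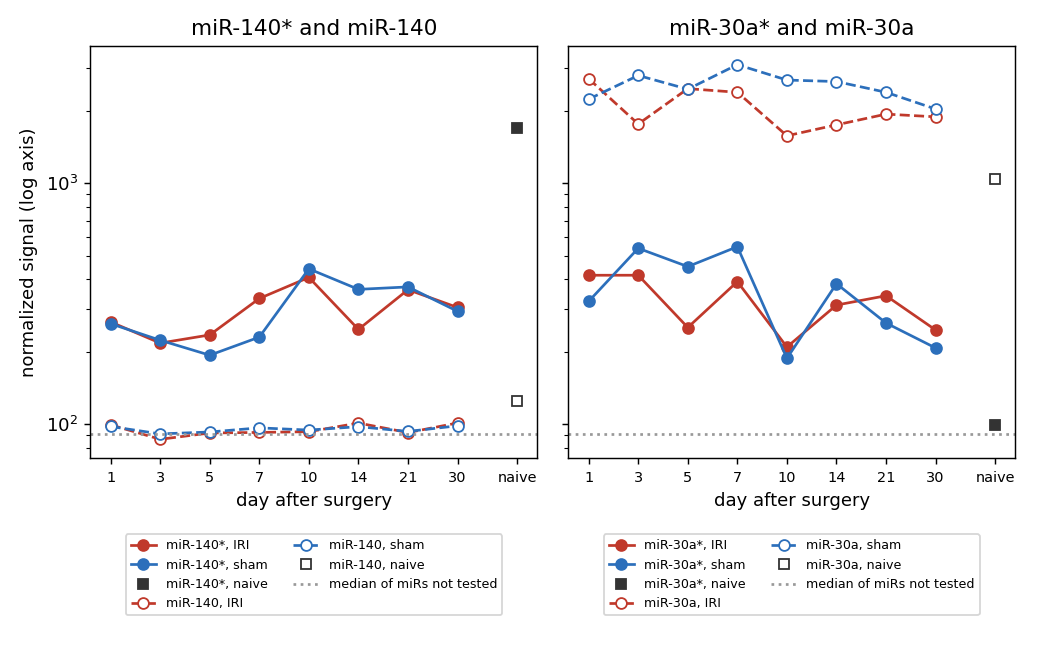
Normalized signal (y axis, log scale) by day after surgery and in naive (x axis) of miR-140* and miR-140 and of miR-30a* and miR-30a. Filled symbols are stars, open symbols guides and the dotted line the median of untested miRs (91.2); in the IRI and sham samples miR-140 lies near that line, whereas miR-30a lies above its star.

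The others were miR-34c*, miR-467a* and miR-467b*, whose guide rows were above the empty spots in 2, 0 and 1 of the 16 samples. The miR-467 hairpins belong to a large mouse cluster in an intron of Sfmbt2, and their 2 star probes differ at 1 base. The sham pool of day 5 read 1853 for miR-467b* and 1038 for miR-467a*, and the IRI pool of that day 253 and 130. The next highest samples of miR-467b* were sham on day 1 at 421 and sham on day 10 at 295.3, while IRI ran from 76.9 to 253. Its mean log2 IRI/sham ratio was -0.95 (SE 0.36, adjusted p = 0.0676), which did not pass. It passed on the authors' processed values, at -1.58 (adjusted p = 0.0199), with plain subtraction, at -1.59 (adjusted p = 0.0348), and without the offset, at -1.31 (adjusted p = 0.048).

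In 39 exact pairs the guide was tested and the star was not. Of these guides 17 were higher and 4 lower in IRI at an adjusted p under 0.05, or 53.8%, beside 36.4% of all 176 tested miRs. The clearest was miR-21, a miR long known to be induced by kidney injury, with 17856 to 28918 in IRI and 2788 to 7835 in sham and no overlap between arms. The log2 ratio of miR-21 was 2.51 (SE 0.19, adjusted p = 4.84e-05), while miR-21* was above the empty spots in 3 of the 16 samples and read 85.8 to 104. The guides miR-15b, at 1.53 (SE 0.14, adjusted p = 0.000155), miR-214, at 1.16 (SE 0.30, adjusted p = 0.0207), and miR-146b, at 1.61 (SE 0.45, adjusted p = 0.0272), rose likewise, with stars above the empty spots in 1, 1 and 0 samples. Whether these stars followed their guides cannot be read at this signal.

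Between IRI and sham 3 of the 24 tested stars passed the test of the mean log2 ratio over the 8 arrays, all lower in IRI, or 12.5%. Over all tested miRs 36.4% passed, 18.8% higher and 17.6% lower. No star passed as higher in IRI, and 6 stars had an unadjusted p under 0.05. The filter counted both arms together, while the median count of stars above the empty spots was 20 in IRI and 27 in sham. The part of the filter in these calls and signs was not tested. The median ratio was -0.095 over the tested stars and -0.047 over all tested miRs. Of the 24 stars 17 lay below 0, beside 52.8% of all tested miRs, and with median scaling 6 of the stars did. The normalized signals of IRI and sham overlapped in all 24 stars, and over all tested miRs they did not overlap in 2.84%.

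The star of miR-200b fell with its guide. In IRI miR-200b* ran from 132.1 to 209.9 with a median of 162, and in sham from 138 to 254 with a median of 189. The sham pool was the higher one on all 8 arrays although the ranges overlap. The mean log2 ratio was -0.24 (SE 0.072, adjusted p = 0.0334; exact sign-flip p = 0.0078, the smallest that 8 arrays allow). The guide miR-200b, at 4474 to 9172 in IRI and 6451 to 10053 in sham, had a ratio of -0.42 (SE 0.11, adjusted p = 0.0198) and was also lower on all 8 arrays. With no offset the ratio of miR-200b* was -0.42, and with median scaling it turned to 0.077. On the authors' values it was -0.33 and did not pass (adjusted p = 0.159), nor did it in the unpaired fit (adjusted p = 0.198).

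The other 2 stars that passed were dimmer. The star miR-30c-1* ran from 88.7 to 127 in IRI and 103 to 135 in sham, lower in IRI on all 8 arrays, with a ratio of -0.24 (SE 0.076, adjusted p = 0.0359). Its guide miR-30c had a ratio of -0.27 (SE 0.16, adjusted p = 0.219). The star miR-378*, whose hairpin lies in Ppargc1b, a gene of mitochondrial metabolism, ran from 89.4 to 125 in IRI and 105 to 131 in sham, with a ratio of -0.18 (SE 0.060, adjusted p = 0.0403), and its guide fell as well, at -0.64 (SE 0.21, adjusted p = 0.0448). These stars were above the empty spots in 11 and 9 of the 16 samples, in IRI in 4 and 2 and in sham in 7 each. The filter thus admitted them mainly through sham, the arm where they were higher. Without the offset the ratios were -0.54 and -0.43, and median scaling ended both calls at -0.12 and -0.093. The unpaired fit ended that of miR-378* (adjusted p = 0.103). A further miR-30 star, miR-30c-2*, did not pass, at -0.41 (SE 0.15, adjusted p = 0.0615). It passed without the offset, at -0.63 (adjusted p = 0.0348), on the authors' values, at -0.76 (adjusted p = 0.0242), and with plain subtraction, at -0.81 (adjusted p = 0.0248).

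The calls of these 3 stars depended on single arrays. None of the 3 passed without day 3, day 7, day 14, day 21 or day 30, and their ratios without any 1 array stayed between -0.27 and -0.16. Median scaling moved the median ratio of all tested miRs up by 0.23 and turned the calls to 80.4% higher from 51.6%. Under it no star passed as lower, and miR-674* and miR-34c* passed as higher at 0.39 and 0.31.

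The change of the IRI/sham ratio with time, fitted as a slope on log2(day) in which an equal dye difference cancels, passed in 2.27% of all tested miRs and in none of the stars. The star with the lowest p was let-7d*, at 0.21 per log2 day (SE 0.084, unadjusted p = 0.0373, adjusted p = 0.191), the only one with an unadjusted p under 0.05. On day 30 it read 266 in IRI and 127 in sham, a log2 ratio of 1.07, against -0.63 to 0.24 on the other days.

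The IRI/sham ratios of star and guide had the same sign in 12 of 17 pairs, 9 with both below 0 and 3 with both above. Without the filter on low signals it was 49 of 104 pairs. The signs were opposite in the pairs of miR-27b, let-7d, miR-10b, miR-30b and miR-322. Taken array by array, the signs were the same in 94 comparisons of a pair, or 69.1%. Both strands passed the test in 2 pairs, miR-200b and miR-378, both lower in IRI. Of the 17 guides 7 passed as lower and 1 as higher, beside 17.6% lower and 18.8% higher over all tested miRs. The higher one was miR-10a at 0.60 (SE 0.19, adjusted p = 0.0349), whose star stood at 0.21 (SE 0.10, adjusted p = 0.138). Median scaling left the same sign in 8 pairs.

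The star ratio was nearer to 0 than the guide ratio in 16 of 17 pairs. Its median size was 0.11 and that of the guides 0.41 on the log2 scale. Without the offset, which lifts dim signals off 0, these were 0.17 and 0.40, and the star was nearer to 0 in 14 pairs.

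**Figure D4:**
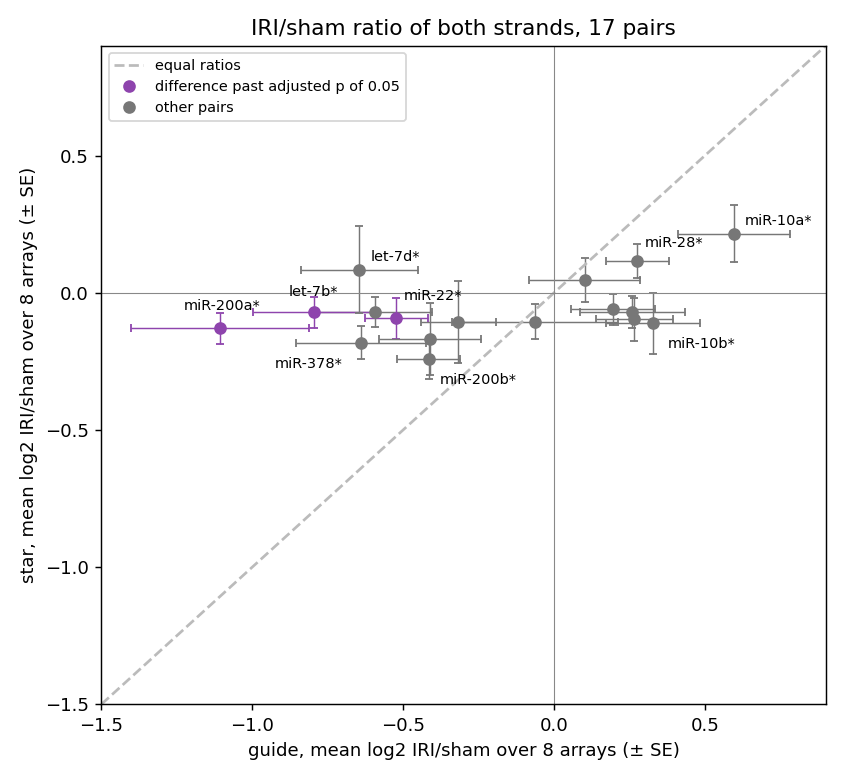
Mean log2 IRI/sham ratio of the star (y axis) against that of its guide (x axis) in 17 pairs, over 8 arrays, with bars of 1 SE. Purple points are the 3 pairs whose difference passed the test, and the dashed line marks equal ratios; 16 points lie closer to 0 on the star axis than on the guide axis.

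The difference between the strands, the star ratio minus the guide ratio on each array, passed in 3 of 17 exact pairs, beside 20% of all 25 same-hairpin pairs tested, and 7 of the 17 had an unadjusted p under 0.05. In each of the 3 the guide was lower in IRI and the star was not called. For miR-200a the guide fell from a median of 1951 in sham to 856 in IRI, at -1.11 (SE 0.30, adjusted p = 0.0235), while miR-200a* had medians of 112 and 104 and a ratio of -0.13 (SE 0.056, adjusted p = 0.0931). Their difference was 0.98 (SE 0.27, adjusted p = 0.0186), with the star higher relative to its guide on 7 of 8 arrays. The array of day 5 went the other way, with the guide at 0.76. Without the offset the difference was 0.96 (adjusted p = 0.0366), and it did not pass on the authors' values, at 0.87 (adjusted p = 0.106), or with plain subtraction, at 0.83 (adjusted p = 0.0708). The star was above the empty spots in 3 of 8 IRI and 6 of 8 sham samples.

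In the let-7b pair the guide fell from a median of 37622 in sham to 22214 in IRI, at -0.80 (SE 0.20, adjusted p = 0.0198). Before normalization its spots averaged 27160 to 44965 in IRI and 29759 to 39952 in sham. On day 30 they averaged 31767 in IRI and 32235 in sham, and after normalization 14476 and 57634. The part of the normalization in this fall was not tested. The star let-7b* had medians of 123 and 120, a ratio of -0.071 (SE 0.055, adjusted p = 0.339) and a lower IRI signal on all 8 arrays. The difference was 0.72 (SE 0.20, adjusted p = 0.0186). This value depended on the background, since it was 0.29 without the offset (adjusted p = 0.176), 0.21 with plain subtraction and 0.31 on the authors' values, none of which passed. It depended on the scaling as well, being 1.32 with median scaling (adjusted p = 0.000166).

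For miR-22, a miR expressed in many tissues, the guide fell from a median of 592 in sham to 457 in IRI, at -0.52 (SE 0.10, adjusted p = 0.00952). The star miR-22* had medians of 116 and 107 and a ratio of -0.094 (SE 0.075, adjusted p = 0.347). It was above the empty spots in 5 of 8 IRI and 6 of 8 sham samples. The difference of 0.43 (SE 0.13, adjusted p = 0.0335) was positive on all 8 arrays, and it was 0.56 without the offset (adjusted p = 0.0178). It did not pass with median scaling, at 0.31 (adjusted p = 0.259), on the authors' values, at 0.61 (adjusted p = 0.0862), or with plain subtraction, at 0.53 (adjusted p = 0.0593), nor in the unpaired fit (adjusted p = 0.0721) or with limma's trend and robust options (adjusted p = 0.0711). Day 14 was the array on which both strands were lowest, at -1.02 for miR-22 and -0.46 for miR-22*.

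**Figure D5:**
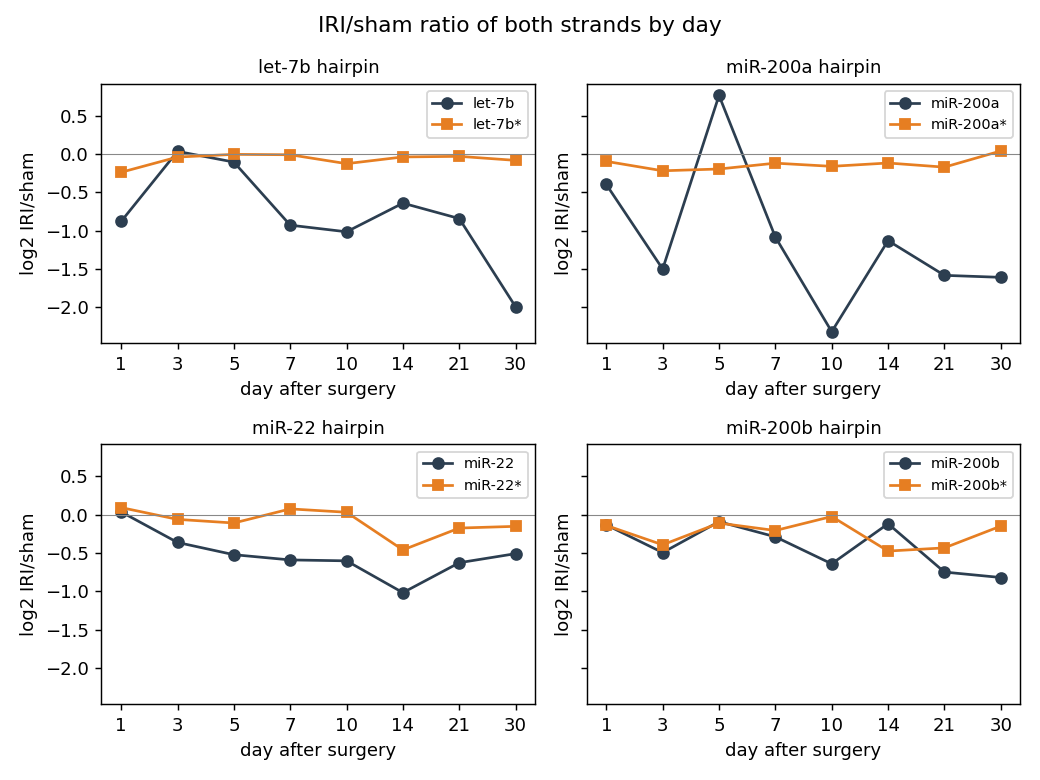
Log2 IRI/sham ratio (y axis) by day after surgery (x axis, days evenly spaced) of both strands of 4 hairpins, 1 array per day. Circles are guides and squares stars; the stars of let-7b, miR-200a and miR-22 stay between -0.46 and 0.094, and both strands of miR-200b lie below 0 on every day.

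These 3 differences did not pass together on every set of arrays. None of the exact pairs passed without day 7, day 10, day 14 or day 21, while 5 passed without day 3 and 9 without day 5. The differences themselves moved less: without day 7, day 10, day 14 or day 21 in turn they were 0.70 to 0.74 for let-7b, 0.81 to 0.98 for miR-200a and 0.40 to 0.43 for miR-22. Without day 30, whose sham pool held miR-122, the differences of let-7b, miR-200a and miR-22 were 0.56, 0.88 and 0.44 and all passed. With the authors' values or plain subtraction 1 pair passed, and it was miR-322, at -0.85 and -0.77, with the star ratio below 0 and the guide ratio above 0, neither strand's own ratio being called on the main values. Without the offset 4 pairs passed, namely miR-200a, miR-22, miR-10b at -0.63 and miR-322 at -0.61 (adjusted p = 0.0366).

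The other 14 differences did not pass, which does not show that the strands acted alike. For miR-200b the difference was 0.18 with a 95% interval from -0.15 to 0.50, and with median scaling it was 0.63 and passed (adjusted p = 0.0236). Its sign turned without the offset, at -0.15, with plain subtraction, at -0.28, and on the authors' values, at -0.024. The pairs of let-7d, at 0.73 (adjusted p = 0.08), let-7f, at 0.52 (adjusted p = 0.0733), and miR-10b, at -0.44 (adjusted p = 0.08), came nearest. Those of let-7d and let-7f passed with median scaling, at 1.38 and 1.09 (adjusted p = 0.000808 for both), in the unpaired fit (adjusted p = 0.0342 for both) and without day 5, at 0.92 (adjusted p = 0.0109) and 0.61 (adjusted p = 0.0152). They did not pass without the offset, at 0.38 and 0.080, or on the authors' values, at 0.64 and -0.044, nor with plain subtraction or without day 30. On day 30 let-7d* had its highest ratio, 1.07, and let-7d its lowest, -1.84. The difference of miR-10b passed without the offset, at -0.63 (adjusted p = 0.0421), and without day 5, at -0.56 (adjusted p = 0.0109). The interval of miR-674, from -0.42 to 0.32, and that of miR-28, from -0.45 to 0.13, both held 0, and the difference of miR-674 turned from -0.054 to 0.13 without the offset. For miR-30a and miR-30e the differences were 0.21 and 0.24, with intervals from -0.18 to 0.61 and from -0.16 to 0.64. In the 3 numbered pairs no difference passed, at 0.028 for miR-30c-1*, -0.14 for miR-30c-2* and -0.036 for miR-24-2*. That of miR-30c-1* turned to -0.45 without the offset, -0.59 on the authors' values and -0.85 with plain subtraction.

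Hairpins whose strands carry the names -5p and -3p served for comparison, since they name no star. Of 5 such pairs tested, 2 had ratios of the same sign in both strands and 2 differences passed, namely miR-199a at -1.44 (5p minus 3p, SE 0.18, adjusted p = 4.66e-05) and miR-151 at 0.62 (SE 0.16, adjusted p = 0.0186). Both strands of miR-199a were higher in IRI, miR-199a-5p at 0.43 and miR-199a-3p at 1.87. Over the 16 samples miR-199a-5p averaged 141.8, near the floor, and miR-199a-3p 1871.7. Ratios so near the floor are held toward 0 on the log2 scale. The part of the floor in this difference was not tested. Among all 25 pairs no difference of slopes passed, and 3 had an unadjusted p under 0.05, namely let-7d (0.027), miR-125a (0.025) and miR-342 (0.0457).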

How the data were processed

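The authors deposited mean spot intensities of 9 arrays, neither background-corrected nor normalized, and a table of processed intensity values on a linear scale; the scanner and how that table was made are not given in the sources used here. Per-spot columns followed their labelled channels (lowest r 0.981 with the own and highest 0.956 with the other). The headers of the day 5 array name its samples only as A and B. All samples were used.

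With limma 3.58.1 in R 4.3.3, intensities were corrected by normexp (offset 50), the 6 spots averaged, arrays loess-normalized with controls at weight 0, and mean log2 intensities quantile-normalized with the naive array. IRI and sham were compared on the log2 ratio per array, so that the array, with both pools of a day as labelled, is the block. Deviations of IRI and sham on 1 array correlated at -0.04 to 0.67. Tests were limma's moderated test of the mean, slope and star minus guide difference, two-sided, with Benjamini-Hochberg adjustment over all 176 tested miRs or 25 pairs and a threshold of 0.05, and exact sign-flip permutation. The spread is that between days. The number of arrays limits the precision.

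Named stars are the 12 exact pairs with the strongest star, every star or pair past the threshold, and 3 on each side of the 8-sample limit; the miR-467 stars, miR-140*, miR-34c* and the guides with an untested star were named after their values were seen. Members and lists were chosen with earlier results of these data known. Alternatives were median scaling, the authors' values, plain subtraction, no offset, other filters, an unpaired fit, day in place of log2(day) and each array left out. Scripts were tested on simulated data. Arms and loci come from RefSeq (GRCm38.p6), by exact match.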

Additional observations from a re-analysis of the deposited data

Results flagged for a closer look

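In 30 groups of 8 samples, the normalized signals of the 15 named star miRs in IRI or sham, 5 had 1 sample far from the rest by Dixon's ratio. This is the gap to the nearest sample over the range, both on the log2 scale, while the signals printed here are linear. Chance flags about 1 in 20 such groups. For let-7d* the IRI pool of day 30 read 266 against 109 to 139 in the others (ratio 0.727), and the sham pool of day 5 read 171 against 111 to 132.4 (ratio 0.595). For miR-674* the sham pool of day 7 read 207 against 118 to 150.5 (ratio 0.569). For miR-30e* the IRI pool of day 10 read 83.4 against 138 to 215.2 (ratio 0.529), and the sham pool of that day was the lowest of its arm as well, at 92.7. For miR-378* the IRI pool of day 10 read 125 against 89.4 to 105 (ratio 0.528).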

How the results depend on the processing

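Star miRs above the empty spots in at least 8 samples numbered 13 with 5 deviations, 62 with the 95th percentile of the empty spots and 24 without day 10. The mean ratio was called in 100 miRs without a filter, 12 of them stars, and in 27 to 65 with 1 array left out, the stars then numbering 0 to 3. Stars called numbered 4 with the authors' values, 5 with plain subtraction, 5 without the offset (an alternative chosen after seeing the data), 0 among miRs above the empty spots in all 16 samples and 1 among those that reached 200. Without the replicate block, as 2 unpaired groups, 54 miRs were called in place of 64, 2 stars in place of 3 (miR-30c-1* and miR-30c-2*), 6 of 25 pairs in place of 5, and 4 star pairs in place of 3. The slope was called in 0 miRs with median scaling, 9 with the authors' values, 0 without a filter, 14 over day and 0 to 19 with 1 array left out, with 0 stars throughout.

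The star minus guide difference was called in 3 of 25 pairs with the authors' values, 3 with plain subtraction, 1 of 3 pairs above the empty spots in all 16 samples, and 1 to 13 with 1 array left out. For exact star pairs it was 5 with median scaling, 1 with the authors' values, 1 with plain subtraction, 4 without the offset, 0 of the 1 pair above in all samples, and 0 to 9 with 1 array left out. Among miRs that reached 200, the pairs of let-7a, let-7b, let-7d and let-7f were called. Without a filter those of let-7b and miR-22 were called among others, and that of miR-200a was not. The difference of slopes was called in 2 pairs over day, 1 of them a star pair, and in 0 to 2 and 0 to 1 with 1 array left out. The same sign was seen in 49 of 104 pairs without a filter, 1 of 1 pair above in all 16 samples, and in 11 to 13 with 1 array left out. The median log2 star/guide ratio was -5.88 with the authors' values, -5.73 with plain subtraction, -5.03 without the offset and -2.80 for the 1 pair above in all 17 samples, where the star was lower in 1.

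Under median scaling the mean ratio turned to 0.19 for miR-30a*, 0.077 for miR-200b*, 0.15 for miR-30e*, 0.21 for miR-322*, 0.19 for miR-10b*, 0.17 for let-7b*, 0.12 for let-7f*, 0.068 for miR-22* and 0.0037 for miR-200a*, the star minus guide difference to 0.041 for miR-10a* and 0.023 for miR-10b*, and the slope to 0.094 for miR-200b* and 0.11 for miR-674*. With the authors' values the difference turned to -0.024 for miR-200b*, 0.064 for miR-674*, -0.044 for let-7f* and -0.59 for miR-30c-1*, and the slope to 0.0093 for miR-200b*. With plain subtraction the difference was -0.28 for miR-200b*, 0.16 for miR-674* and -0.85 for miR-30c-1*, and the slope 0.0020 for miR-674*. Without the offset the difference was -0.15 for miR-200b*, 0.13 for miR-674* and -0.45 for miR-30c-1*.

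With 1 array left out the mean ratio of let-7d* ran from -0.057 to 0.19, the star minus guide difference from -0.14 to 0.094 for miR-674* and from -0.099 to 0.14 for miR-30c-1*, and the slope from -6.8e-06 to 0.29 for miR-30a*, -0.0029 to 0.28 for miR-30e*, -0.036 to 0.015 for miR-674*, -0.0097 to 0.082 for miR-10b*, -0.013 to 0.036 for let-7b*, -0.012 to 0.029 for let-7f* and -0.0044 to 0.054 for miR-200a*. Of the values that turned, the mean ratio of miR-200b* was the one that had passed. The cause of these changes was not tested.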
